A study of Mus musculus with 6 samples.

Results

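The 10 genes for acetylcholine receptors were followed between VMHpvlm and VMHpvll, neighbouring areas of the ventrolateral ventromedial hypothalamus (VMH), in female mice. They were taken by symbol: the nicotinic subunits Chrna3, Chrna4, Chrna5, Chrna7 and Chrnb2, and the muscarinic receptors Chrm1 to Chrm5. These are 10 of the 47480 genes in the deposited table, and 9 of them reached the mean of 10 normalised reads needed for a test. In both regions the genotype was VgluT2-cre with Ai6, a fluorescent reporter, so cells with a history of Slc17a6 (VgluT2) expression were labelled, and the areas were cut by laser from frozen sections. The capture took tissue and not sorted cells, so each library holds RNA of all cell types in the area. Neither the ages of the mice nor any pooling of animals is given in the sources used here. Each region had 3 libraries, named F19, F20 and KH_161103 in both, with 7157831 to 11293159 recovered reads.

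Acetylcholine acts through receptors of unrelated build. Nicotinic receptors are cation channels assembled from several subunits that open within milliseconds, and in the brain most high-affinity receptors combine the alpha4 subunit with beta2, while alpha7 can form channels on its own. Muscarinic receptors are coupled to G proteins: M1, M3 and M5 act mainly through Gq and phospholipase C and excite neurons in part by closing KCNQ potassium channels, whereas M2 and M4 act through Gi/o, lower cyclic AMP and open GIRK potassium channels. M2 often sits on cholinergic and other nerve endings, where it curbs transmitter release.

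The receptor genes did not move as a block. Chrna4, Chrna7, Chrm1, Chrm3 and Chrm5 were higher in VMHpvlm, by 1.26 to 1.91-fold, Chrm2 was 1.69-fold higher in VMHpvll, and Chrnb2, Chrm4 and Chrna3 were not called. Of the 9 tested genes, 5 were thus called higher in VMHpvlm, where 10.5% of all tested genes were, and 1 in VMHpvll, where 9.48% were (limma, Benjamini-Hochberg adjusted p below 0.05). Their median log2 difference was 0.54, and that of all 14522 tested genes was 0.002. Without the F19 pair, 3 were called higher in VMHpvlm (Chrna4, Chrna7 and Chrm3) and 1 in VMHpvll, with 14.8% of all tested genes called, 7.84% and 6.93%. The libraries of the regions did not overlap for 5 genes higher in VMHpvlm and for 1 higher in VMHpvll, against 14.5% and 13.5% of all tested genes, 28.0% in either direction. Scaling the libraries to general neuron markers moved the split over all genes from 1528 higher and 1377 lower in VMHpvlm to 918 and 2335, and left 4 receptor genes called higher and 1 lower. Other rules moved the background as well. edgeR called 5 receptor genes higher in VMHpvlm and 1 in VMHpvll, with 20.9% of all genes called, 10.5% and 10.4%. Without the pair block limma called 3 (Chrna4, Chrna7 and Chrm5) and 1, with 6.45% and 5.94% of all genes called. DESeq2 called 2 (Chrna4 and Chrna7) and 1, with 8.47% of all genes called, 4.46% and 4.01%. Without trend or robust steps in the variance prior, limma called Chrna4 alone, with 1.3% and 1.6% of all genes called. In such tissue samples, fewer cells with a transcript and less of it per cell cannot be told apart.

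**Figure D1:**
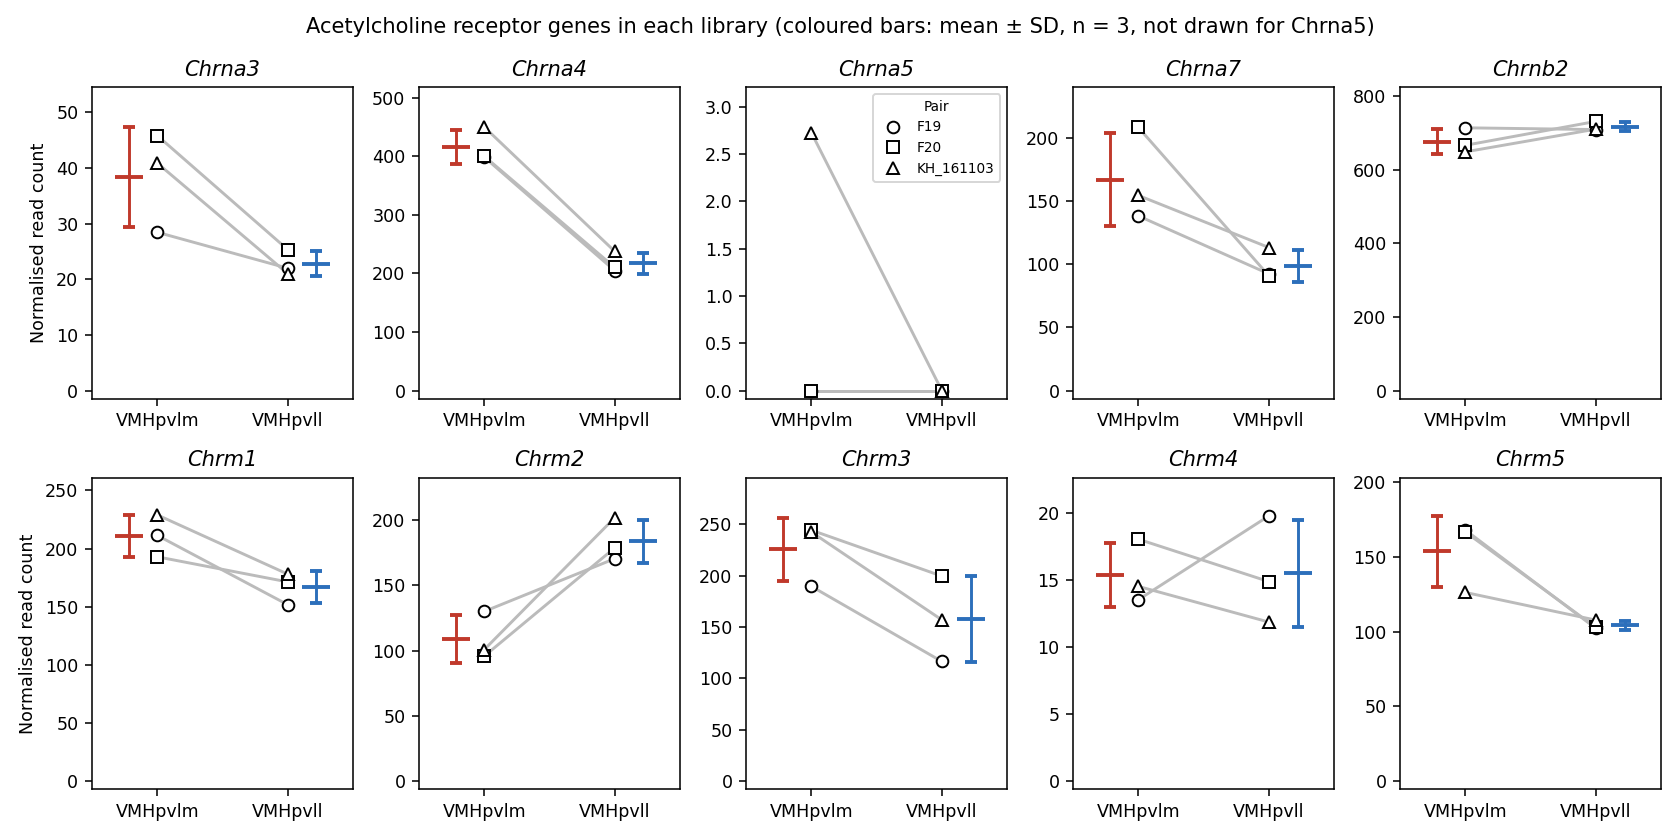
Normalised read counts (y axis, from 0) of the 10 receptor genes in each library of VMHpvlm and VMHpvll, with grey lines joining libraries of the same name and coloured bars for the mean and SD of 3 libraries. Chrna4 lay between 398 and 449.6 in VMHpvlm and between 204 and 237 in VMHpvll, Chrm2 was lower in VMHpvlm in each pair, and Chrnb2 stayed between 648 and 731.

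Sequence upstream of the start site is shown for the members with the smallest p in each direction, Chrna4 and Chrna7 toward VMHpvlm and Chrm2 toward VMHpvll. Each stretch is 250 bases of RefSeq sequence (GRCm38.p6, the build called mm10), read 5′ to 3′ on the gene's strand and ending just before an annotated start, with CG dinucleotides in capitals. The Chrna4 stretch, chr2:181039178-181039427 on the minus strand, precedes a start that lies inside the GENCODE gene. The Chrna7 stretch, chr7:63212527-63212776 on the minus strand, likewise reaches into its GENCODE gene, which ends at 63212569, and the Chrm2 stretch is chr6:36387834-36388083 on the plus strand.
Chrna4: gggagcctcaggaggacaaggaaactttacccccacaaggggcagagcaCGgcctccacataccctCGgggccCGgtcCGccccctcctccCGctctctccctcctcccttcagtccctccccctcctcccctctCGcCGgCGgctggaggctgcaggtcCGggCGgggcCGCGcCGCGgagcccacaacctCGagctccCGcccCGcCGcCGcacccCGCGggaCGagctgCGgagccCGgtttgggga
Chrna7: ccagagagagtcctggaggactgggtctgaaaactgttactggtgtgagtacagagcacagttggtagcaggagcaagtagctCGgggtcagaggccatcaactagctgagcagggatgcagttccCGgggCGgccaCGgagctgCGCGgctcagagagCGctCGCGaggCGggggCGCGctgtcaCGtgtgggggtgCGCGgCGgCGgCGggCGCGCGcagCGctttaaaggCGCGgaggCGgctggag
Chrm2: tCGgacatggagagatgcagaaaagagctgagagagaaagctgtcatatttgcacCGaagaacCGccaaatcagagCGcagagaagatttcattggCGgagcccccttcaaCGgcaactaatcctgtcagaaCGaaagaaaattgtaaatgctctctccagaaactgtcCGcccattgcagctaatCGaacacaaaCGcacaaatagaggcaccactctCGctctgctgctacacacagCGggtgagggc
The Chrna4 and Chrna7 stretches were GC-rich, at 74.4% and 67.2%, with 24 and 25 CG dinucleotides. That of Chrm2 was at 50% with 12, and the median over 32851 RefSeq windows was 52.4% with 6 CG dinucleotides. Chrnb2, the partner of Chrna4, had 59.6% and 10. These values did not sort by direction. Chrm3 and Chrm5, also called toward VMHpvlm, had 61.2% with 10 and 37.6% with 2, and the uncalled Chrm4 had 70.0% with 26. Windows of 300 bases, the 250 upstream bases and 50 downstream, were found for 9 of the 10 genes, all but Chrm1. They were searched on both strands for a site of NR5A factors (CAAGGTCA), the palindromic oestrogen response element (GGTCA and TGACC with 3 free bases between), the core of both (AGGTCA, whose last bases GGTCA each holds) and the cAMP response element (TGACGTCA), since the NR5A gene Nr5a1 was higher in VMHpvlm (308 ± 19.5 against 31.5 ± 6.73, mean ± SD, n = 3) and the oestrogen receptor gene Esr1 in VMHpvll (1490 ± 63.8 against 513 ± 74.0). These letters were absent from the windows of Chrna4, Chrna7 and Chrm2. The core alone matched, in Chrm5, Chrnb2 and 1 of the windows of Chrna5, and it is in 16.3% of all windows. The NR5A site is in 1.56%, the cAMP response element in 1.79% and the palindrome in 0.07%. The Chrm5 window lies inside its RefSeq gene, which spans 112478733 to 112536361 on chromosome 2.

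Chrna4, the alpha4 subunit that binds acetylcholine and nicotine in the main high-affinity brain receptor, differed most. It read 398, 399.8 and 449.6 normalised reads in the F19, F20 and KH_161103 libraries of VMHpvlm, and 204, 210.0 and 237 in those of VMHpvll. Every VMHpvlm library was above every VMHpvll library, and the pairs differed by almost the same amount, 0.96, 0.93 and 0.92 on the log2 scale. The mean was 416 ± 29.2 against 217 ± 17.6 (SD, n = 3), a 1.91-fold difference. The fitted log2 difference was 0.93 ± 0.09 SE (limma, Benjamini-Hochberg adjusted p = 3.56e-11). It remained called under all 16 alternative settings, with values from 0.85 to 0.96 and adjusted p from 1.08e-19 to 0.0308. The gene lies on chromosome 2 from 181018380 to 181043546 (mm10, GENCODE M21), is protein-coding and shares no exon bases with another gene there. The gene model used for counting is not given, so which exons its value covers is not known.

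Chrnb2, the beta2 subunit with which alpha4 assembles, did not follow it. Its levels were 714, 666 and 648 in VMHpvlm and 709, 731 and 710.2 in VMHpvll, so the regions overlapped. The mean was 676 ± 33.8 against 717 ± 12.5 (SD, n = 3), and the log2 difference was -0.09 ± 0.06 SE (limma, Benjamini-Hochberg adjusted p = 0.406). With 3635 reads over the libraries it was the deepest-read member. In GENCODE M21 16.3% of its exon bases are shared with Adar on the opposite strand, while the RefSeq spans overlap by 8 bp. Part of its reads is therefore uncertain, depending on the gene model.

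The ratio of Chrna4 to Chrnb2 therefore differed between the regions. On the log2 scale it was -0.84, -0.74 and -0.53 in the VMHpvlm libraries and -1.79, -1.80 and -1.58 in those of VMHpvll. The difference was 1.02 ± 0.06 (SD, n = 3 pairs) and was positive in 3 of 3 pairs. A ratio within a library does not depend on the scaling. An exact sign-flip test over 3 pairs cannot give a p below 0.25, so none is given.

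Chrna7, whose product forms homomeric channels with high calcium permeability, was also higher in VMHpvlm. Its levels were 138, 208 and 154 in VMHpvlm and 92.3, 90.8 and 113 in VMHpvll, with no overlap and the widest gap in the F20 pair. The mean was 167 ± 36.7 against 98.8 ± 12.5 (SD, n = 3), 1.69-fold, and the log2 difference was 0.74 ± 0.14 SE (limma, Benjamini-Hochberg adjusted p = 0.000107). The call was lost when the variance prior was fitted without trend or robust steps (adjusted p = 0.127), a setting that called 2.91% of genes in place of 20%. The gene spans 63098692 to 63212569 on chromosome 7, is protein-coding, and shares no exon bases with other genes in GENCODE M21.

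Chrna3, an alpha subunit best known from autonomic ganglia and the habenula, was low. It read 28.4, 45.8 and 40.9 in VMHpvlm and 21.98, 25.3 and 21.0 in VMHpvll, from 17 to 45 recovered reads per library. The libraries of the regions did not overlap and 3 of 3 pairs had the higher value in VMHpvlm. The log2 difference was 0.71 ± 0.27 SE, which missed the threshold (limma, Benjamini-Hochberg adjusted p = 0.0625, with 0.0505 to 0.49 over 15 alternatives).

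Chrna5, an accessory subunit that joins alpha4 and beta2, was at 0 in 5 libraries and at 2.73 normalised reads, 3 recovered reads, in the KH_161103 library of VMHpvlm. A count of 0 allows up to 3 reads, which is 2.73 to 4.47 normalised reads depending on the library, for counting error only. It was not tested and no fold is given. In RefSeq the spans of Chrna5 and Chrna3, which lie on opposite strands of chromosome 9, overlap by 1304 bp, and without the strand reads there cannot be told apart.

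The other nicotinic subunits were near the limit of detection as well. Of 11 genes, 5 (Chrna2, Chrna9, Chrna10, Chrnd and Chrng) had no read in any library and 0 passed the filter. The highest mean was that of Chrnb4, the usual partner of alpha3, at 6.44 normalised reads over the 6 libraries. Chrna6 and Chrnb3, which mark receptors of dopamine neurons, had at most 2 reads in a library.

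Among the Gq-coupled receptors, Chrm3, Chrm5 and Chrm1 were each higher in VMHpvlm. Chrm3, the receptor also known from glands and smooth muscle, was at 189.6, 244 and 242 in VMHpvlm and at 117, 199.6 and 157 in VMHpvll. The F20 library of VMHpvll was above the F19 library of VMHpvlm, so the regions overlapped, yet VMHpvlm was higher within each pair. The mean was 226 ± 31.1 against 158 ± 41.5 (SD, n = 3), 1.43-fold, with a log2 difference of 0.54 ± 0.12 SE (limma, Benjamini-Hochberg adjusted p = 0.000458). The call rests on the pairing, since it was lost without the block (adjusted p = 0.057), and it was also lost with DESeq2 (0.0517) and without trend or robust steps (0.104).

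Chrm5, a receptor found at low levels in most of the brain and known from midbrain dopamine neurons, was at 168, 167 and 126 in VMHpvlm and at 102, 103 and 108 in VMHpvll. The regions did not overlap, and the gap was narrowest in the KH_161103 pair, at 0.23 on the log2 scale against 0.71 and 0.69. The mean was 154 ± 23.7 against 104 ± 3.03 (SD, n = 3), 1.47-fold, with a log2 difference of 0.54 ± 0.14 SE (limma, Benjamini-Hochberg adjusted p = 0.00323). The call was lost without the F19 pair (adjusted p = 0.0584), with DESeq2 (0.16) and without trend or robust steps (0.126). In RefSeq the span of Chrm5 overlaps that of Aven by 43479 bp, so reads of the neighbour may be counted with it, depending on the gene model.

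Chrm1, the main Gq-coupled receptor of forebrain neurons, showed the smallest called difference. It was at 211, 193 and 229 in VMHpvlm and at 152, 171 and 178 in VMHpvll, without overlap. The mean was 211 ± 18.0 against 167 ± 13.7 (SD, n = 3), 1.26-fold, with a log2 difference of 0.34 ± 0.11 SE (limma, Benjamini-Hochberg adjusted p = 0.0305). The call was lost under 7 of 16 alternatives, where adjusted p reached 0.388.

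Of the Gi/o-coupled receptors, Chrm2 was the member higher in VMHpvll. It was at 170.4, 179 and 202 in VMHpvll and at 130.0, 95.8 and 101 in VMHpvlm. The regions did not overlap, and the F19 pair differed least, by -0.39 on the log2 scale against -0.89 and -0.99. The mean was 184 ± 16.2 in VMHpvll against 109 ± 18.5 in VMHpvlm (SD, n = 3), 1.69-fold, with a log2 difference of -0.76 ± 0.14 SE (limma, Benjamini-Hochberg adjusted p = 2.50e-05). The call was lost without trend or robust steps (adjusted p = 0.098). Chrm2 spans 36388084 to 36528414 on chromosome 6, is protein-coding, and shares 2.3% of its exon bases with the non-coding 9330158H04Rik on the other strand.

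Chrm4, the other Gi/o-coupled receptor, best known from striatal neurons, was low in both regions. It read 13.5, 18.0 and 14.5 in VMHpvlm and 19.8, 14.9 and 11.9 in VMHpvll, from 10 to 18 recovered reads per library. The log2 difference was 0.01 ± 0.37 SE (limma, Benjamini-Hochberg adjusted p = 0.996), an error too wide to exclude a difference as large as that of Chrm3. The log2 ratio of Chrm4 to Chrm2 was higher in VMHpvlm by 1.18 and 1.29 in the F20 and KH_161103 pairs and lower by -0.16 in the F19 pair, and those ratios rest on the few reads of Chrm4. The log2 ratio of Chrm1 to Chrm3 differed by -0.20 ± 0.07 (SD, n = 3 pairs).

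**Figure D2:**
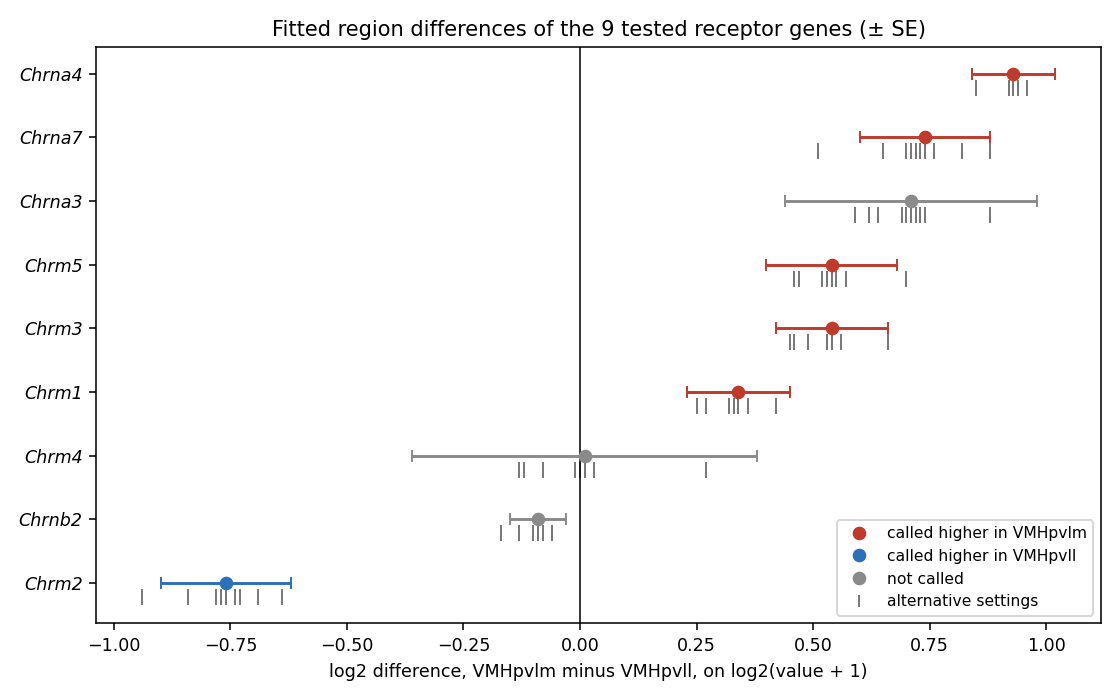
Fitted log2 differences (x axis, log2(value + 1), VMHpvlm minus VMHpvll) of the 9 tested receptor genes, with bars for the SE and grey ticks for the alternative settings. Points are red where VMHpvlm was higher, blue where VMHpvll was, and grey without a call. Chrna4 kept values from 0.85 to 0.96, and the ticks of Chrm4 lay on both sides of 0.

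Levels of different genes were compared per kilobase of merged GENCODE M21 exons, in normalised reads per kb. In VMHpvlm Chrna4 (82.8 ± 5.82) and Chrnb2 (80.7 ± 4.03) lay within each other's spread on these exon lengths. In VMHpvll Chrnb2 was at 85.5 ± 1.49 and Chrna4 at 43.3 ± 3.51 (SD, n = 3). In VMHpvlm Chrna7 (37.1 ± 8.14), Chrm3 (36.1 ± 4.97) and Chrm1 (32.5 ± 2.77) followed within each other's spread, then Chrm2 (18.0 ± 3.06), Chrm4 (10.7 ± 1.64), Chrna3 (7.29 ± 1.70) and Chrna5, last. In VMHpvll Chrm2 was at 30.3 ± 2.69, with Chrm1 at 25.7 ± 2.11, Chrm3 at 25.2 ± 6.64 and Chrna7 at 21.9 ± 2.78. There Chrm2 lay above Chrm1 by more than the SD of either. Chrm2, Chrm1 and Chrna7 all lay within the spread of Chrm3, so their order against Chrm3 is not settled. Chrm5 reached 96.05 ± 14.8 in VMHpvlm and 65.2 ± 1.90 in VMHpvll, but its GENCODE model holds 1599 bp, its coding part alone, as does that of Chrm4 at 1440 bp. Their places in the order are upper bounds if the counted model was longer. The place of Chrnb2 depends on the model too. On the minus strand of chromosome 3, its GENCODE gene ends at 89746195 and its RefSeq gene at 89753448. A shorter counted model would put Chrnb2 above Chrna4 in VMHpvlm.

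**Figure D3:**
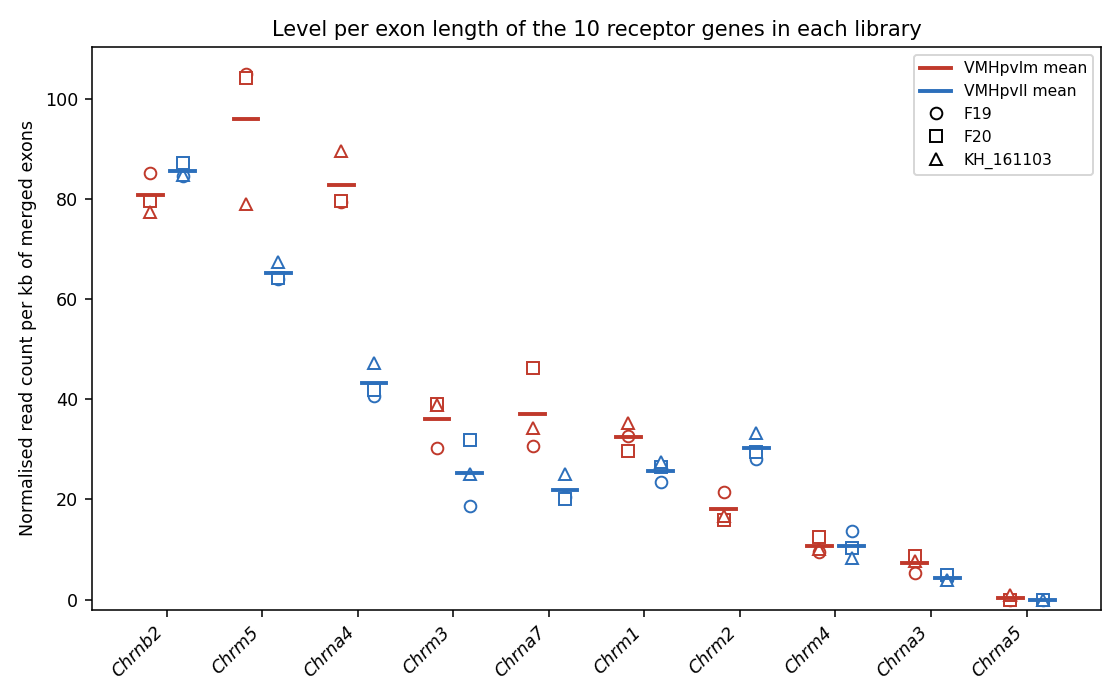
Normalised read counts per kb of merged exons (y axis) for the 10 receptor genes, with 1 symbol per library, red for VMHpvlm and blue for VMHpvll, and lines at the mean of 3 libraries. On GENCODE M21 exon lengths Chrna4 and Chrnb2 lay within each other's spread in VMHpvlm, and Chrna4 was at 43.3 against 85.5 for Chrnb2 in VMHpvll.

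Genes that make acetylcholine, store it or take up choline into cholinergic endings were almost absent. Of the genes that break it down, Ache was present and Bche was low. Chat, which makes acetylcholine, had 5 reads in all 6 libraries, Slc18a3, its vesicular transporter, had 10, and Slc5a7, which takes up choline into cholinergic endings, had 12. None of these passed the filter, and the highest single value among them was 6.60 normalised reads. Ache, which hydrolyses acetylcholine, was at 816 ± 36.6 in VMHpvlm and 706 ± 30.5 in VMHpvll (SD, n = 3), a log2 difference of 0.21 ± 0.06 SE (limma, Benjamini-Hochberg adjusted p = 0.0136) that was lost under 6 of 16 alternatives. Of the 8 genes of this list 3 were tested, and Ache was the 1 called. Prima1 and Colq, also of this list, had 36 and 2 reads in all 6 libraries and were not tested. Slc44a1, a choline transporter, was at 414 ± 18.8 in VMHpvlm against 423 ± 14.4 in VMHpvll. Bche, the other tested breakdown gene, was at 17.1 ± 8.97 against 21.6 ± 5.53 (SD, n = 3).

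Chaperones and surface partners of nicotinic receptors differed in both directions. Of 11 tested genes, 3 were called higher in VMHpvlm and 1 in VMHpvll, with a median log2 difference of 0.09. Over all tested genes the shares were 10.5% and 9.48%. Tmem35, which encodes the chaperone NACHO needed for alpha7 assembly, was at 622 ± 28.2 against 410 ± 30.7 (SD, n = 3), a log2 difference of 0.60 in the direction of Chrna7. Lypd1, a Ly6 protein that binds nicotinic receptors, was 2.21-fold higher in VMHpvlm (953 ± 138 against 431 ± 107), with 17.1% of its exon bases shared with another gene. Lypd6, another Ly6 protein, was higher in VMHpvll (178 ± 5.33 against 90.1 ± 7.12). The calls of Tmem35, Lypd1 and Lypd6 held under 16 of 16 alternatives. Lynx1, which dampens alpha4beta2 receptors, missed the threshold at 1928 ± 61.4 against 1899 ± 271 (limma, Benjamini-Hochberg adjusted p = 0.736), and Ric3, a chaperone of alpha7, missed it too (0.291).

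Genes downstream of the Gq-coupled receptors were called in both directions, 7 higher in VMHpvlm and 6 in VMHpvll of 19 tested, with a median of -0.09. Over all tested genes the shares were 10.5% and 9.48%, and the difference of the list from them was not tested. The phospholipases Plcb1 (1615 ± 72.0 against 942 ± 58.7, SD, n = 3) and Plcb4 (1490 ± 85.7 against 895 ± 58.3) and the kinase Prkcb (2297 ± 81.5 against 1688 ± 104) were higher in VMHpvlm. Of the genes for G protein alpha subunits, Gnaq and Gna11 were not called, at 0.08 and -0.09 on the log2 scale. Gna14, a low gene, was higher in VMHpvll at 32.5 ± 7.21 against 8.02 ± 4.91 (SD, n = 3), the widest log2 difference of the list at -2.0 ± 0.39 SE (limma, Benjamini-Hochberg adjusted p = 0.000105), and lost its call without trend or robust steps (0.117). Rgs4 and Rgs2, which shorten G protein signals, were higher in VMHpvll, at 4245 ± 293 against 2170 ± 192 and at 1182 ± 62.0 against 741 ± 28.2. The KCNQ channels that muscarinic receptors close were split: Kcnq3 was 1.62-fold higher in VMHpvlm and Kcnq5 was at 1651 ± 119 in VMHpvll against 579 ± 41.2. Calls of Plcb1, Plcb4, Rgs4, Rgs2, Kcnq3 and Kcnq5 held under 16 of 16 alternatives.

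Of 20 tested genes downstream of the Gi/o-coupled receptors, 4 were called in each direction, with a median of 0.04. Over all tested genes 10.5% were called higher in VMHpvlm and 9.48% in VMHpvll. The GIRK channel genes Kcnj3 (808 ± 66.6 against 472 ± 11.7, SD, n = 3), Kcnj9 (544 ± 31.5 against 407 ± 37.5) and Kcnj5 (110.4 ± 19.99 against 59.5 ± 12.4) were higher in VMHpvlm, opposite to Chrm2. Kcnj6, another GIRK subunit, was in the direction of Chrm2 (554 ± 64.4 in VMHpvll against 431 ± 27.4), as was the G protein gene Gnai2 (2734 ± 45.2 against 2265 ± 77.3). Gnai1 was called the other way (1200 ± 103 in VMHpvlm against 1081 ± 64.1), a call lost under 10 of 16 alternatives. Gnai3 and Gnao1 were not called. Kcnj3 shares 31.1% of its exon bases with another gene in GENCODE M21. Of 7 tested receptor kinases and arrestins, 0 were called by limma, edgeR or DESeq2 and 0 had an unadjusted p below 0.05. Grk5 had the smallest (limma, Benjamini-Hochberg adjusted p = 0.383). Among receptors for other small transmitters, 4 of 8 tested serotonin receptors were called, each toward VMHpvlm (median 0.25). Of 8 tested dopamine and alpha-adrenergic receptors, 4 were called toward VMHpvlm and 2 toward VMHpvll (median 0.49). The shares over all tested genes were 10.5% toward VMHpvlm and 9.48% toward VMHpvll. The difference between these groups of genes and the acetylcholine receptors was not tested.

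**Figure D4:**
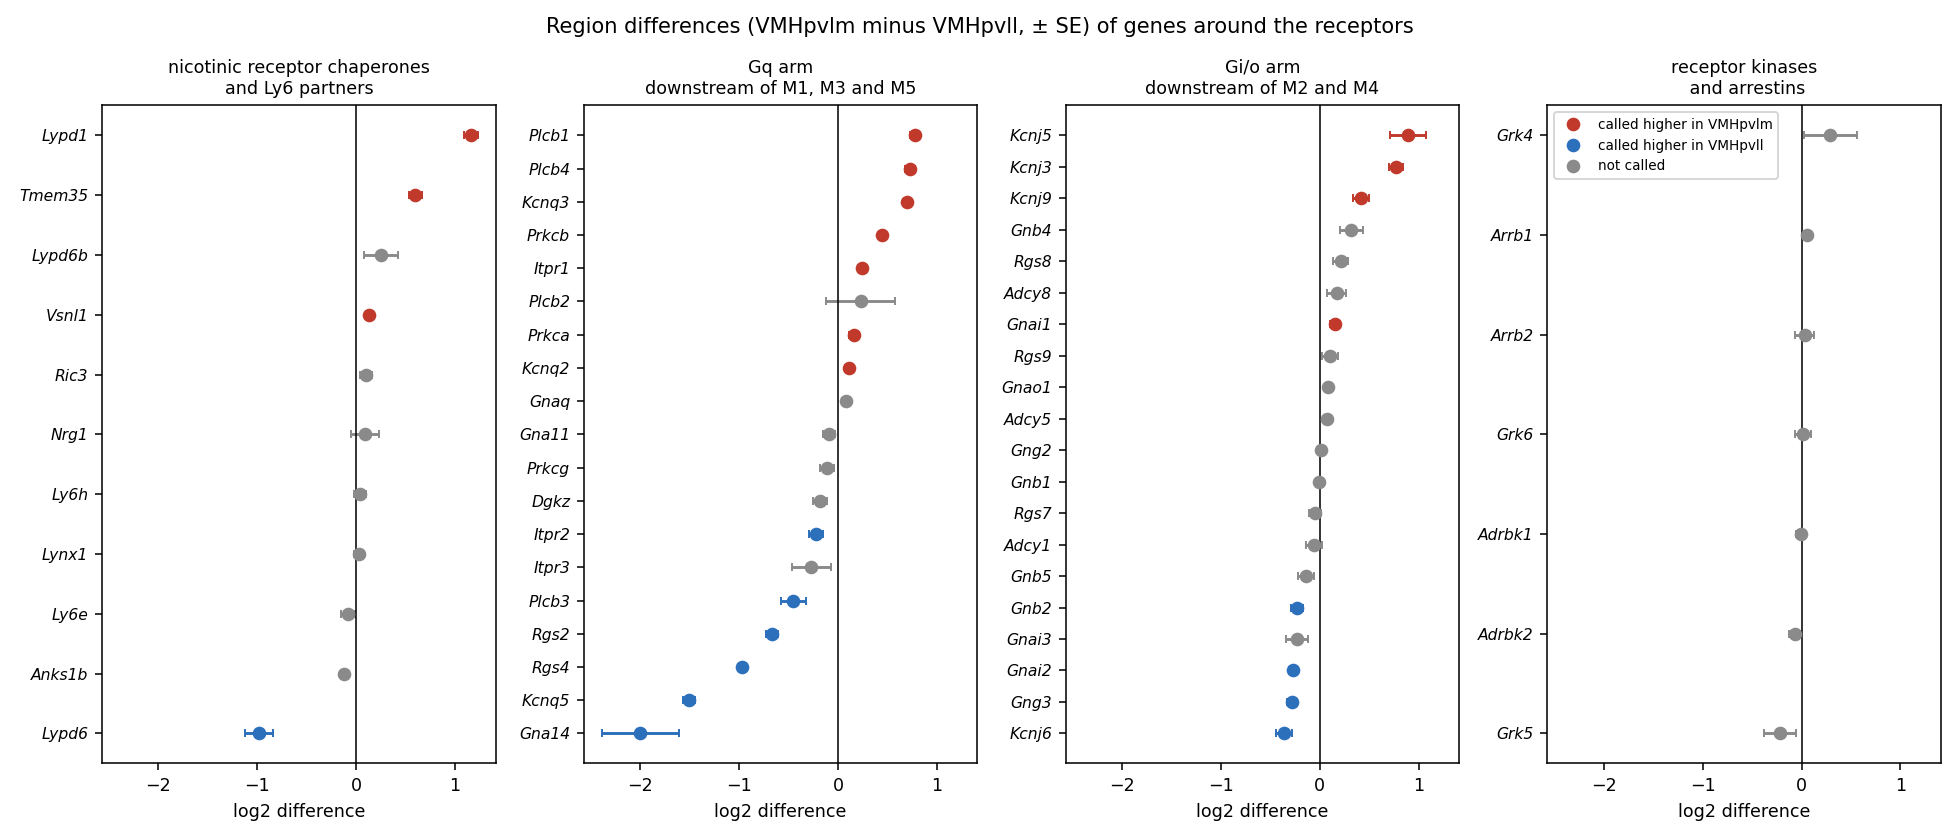
Fitted log2 differences (x axis, VMHpvlm minus VMHpvll, bars for the SE) of the tested genes in 4 lists around the receptors. Colours are as for the receptor genes, with red toward VMHpvlm, blue toward VMHpvll and grey without a call. Lypd1, Tmem35, Plcb1 and Plcb4 were called toward VMHpvlm, and Lypd6, Rgs4 and Kcnq5 toward VMHpvll.

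Markers of several cell types differed between the regions. Over all tested genes 10.5% were called higher in VMHpvlm and 9.48% in VMHpvll. Of 10 general neuron markers, 5 were called, each higher in VMHpvlm, with a summed level of 74840 to 80580 against 70380 to 75020, and Map2, the most abundant, was not called. When libraries were scaled to the same sum of these markers, Chrna4 differed by 0.85, Chrna7 by 0.65 and Chrm2 by -0.84, all still called, while Chrm1 was not (limma, Benjamini-Hochberg adjusted p = 0.122). Of 6 tested GABAergic markers, 6 were higher in VMHpvll (summed 2110 to 2461 against 843 to 1104), as were 9 of 10 oligodendrocyte markers (16140 to 17370 against 11970 to 13700), 5 of 10 astrocyte markers (34600 to 39700 against 29530 to 31690) and 6 of 10 vessel markers (2446 to 3101 against 1638 to 2064). None of these lists had a marker at 0 in every library, and their part in the receptor differences was not tested. Of 10 VMH neuron markers, 8 were higher in VMHpvlm and 1 in VMHpvll. Of 7 tested markers of neighbouring tuberal and arcuate neurons, 3 were called higher in VMHpvlm (Npy, Pomc and Pdyn) and 1 in VMHpvll (Ghrh). Pomc was at 206 ± 115 in VMHpvlm against 47.8 ± 31.0 in VMHpvll (SD, n = 3). Ghrh was at 12.4 ± 10.6 against 31.8 ± 14.8. Trh, also lower in VMHpvlm in 3 of 3 pairs, was not called (34.3 ± 18.7 against 146.5 ± 56.6). The part of such neighbouring neurons in the receptor differences was not tested. Of the cholinergic markers, Chat, Slc18a3, Slc5a7, Lhx8 and Gbx1 were at or near 0, and Isl1, which many hypothalamic neurons express, was higher in VMHpvll (339.5 ± 26.5 against 237 ± 36.8).

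For each called receptor, the genes with the nearest profile were found among 11126 others with a mean of at least 50, as the smallest root mean square gap between centred log2 values over 6 libraries. Sox1, a transcription factor gene, was nearest to Chrna4, with a gap of 0.043 where Chrna4 itself spanned 1.13, and it read 361 and 183 normalised reads in VMHpvlm and VMHpvll. Spats2l came next at 0.074. Kl, which encodes klotho, was near Chrm2 (0.058), after Dxo (0.055). Gng13, a G protein gamma subunit gene, was near Chrm3 (0.094), after Fhad1 (0.093). Cdon and Gm42973 were nearest to Chrm1, 9230110C19Rik and Pcdhga12 to Chrm5, and Zc2hc1c and D630023F18Rik to Chrna7, with gaps from 0.027 to 0.126. The profiles share the same 6 libraries, and each match is the nearest of a search over all of these genes.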

How the data were processed

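RNA was sequenced from 6 laser-captured samples, 3 of each region, made with a stranded total RNA kit, per the labels' protocols. HISAT2, featureCounts and mm10 are named, without versions, in the submitters' processing notes, while the sources used here give no annotation, scaling tool or use of strand. The deposited table holds a normalised signal, gene read counts that the authors divided by 1 size factor per library: in each library 100% of non-zero values were whole multiples of 1 read within 0.05 reads.

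For 14522 genes with a mean of at least 10, log2(value + 1) was fitted with limma 3.58.1 in R 4.3.3 (eBayes with trend and robust), with region and pair name as terms. Tests were two-sided, with Benjamini-Hochberg adjustment over all tested genes and calls at an adjusted p below 0.05. Each gene has 2 residual degrees of freedom and the prior adds a median of 39.9, so p-values lean on the spread shared by genes. The log2(value + 1) scale understates changes of low genes. The libraries were paired by the names in their titles. Deviations from the region means correlated at 0.255, 0.244 and 0.363 for libraries of the same name and between -0.247 and 0.007 otherwise. The titles do not say that a name is 1 animal, so p-values measure only how these libraries vary, which may be technical. Libraries of 1 region differed beyond sampling noise (chi-square per degree of freedom 5.58 to 10.0). edgeR 4.0.16 on the recovered whole reads called 3031 genes and DESeq2 1.42.0 called 1230. Differences are VMHpvlm minus VMHpvll, and folds are ratios of region means. Intervals and limits of counts cover counting error only.

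The members and gene lists were chosen with earlier results of these data known. Named were all members, the genes of each list with the smallest p (up to 4), genes that define a role, and the 2 nearest profiles per called member, and some other list genes were named after their values were seen. Exon lengths, positions and overlaps came from GENCODE M21, which holds 96.5% of the tested symbols, and upstream sequences and spans from RefSeq (GRCm38.p6).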

Additional observations from a re-analysis of the deposited data

How the results depend on the processing

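Under 16 alternatives no receptor gene called in the main analysis changed direction. Without the replicate block, 937 genes were called higher in VMHpvlm and 863 in VMHpvll, 3 of them receptor genes higher in VMHpvlm, and Chrm1 (0.34, limma Benjamini-Hochberg adjusted p = 0.0849) and Chrm3 (0.54, 0.057) were not called. The block changed no other receptor call. Without trend or robust steps, 189 and 233 genes were called, 1 receptor gene higher in VMHpvlm and 0 in VMHpvll, with Chrna7 at 0.74, Chrm1 at 0.34, Chrm2 at -0.76 and Chrm3 and Chrm5 at 0.54. DESeq2 called 648 and 582 genes and 2 receptor genes higher in VMHpvlm, with Chrm1 at 0.33 and Chrm3 and Chrm5 at 0.53. Without a filter Chrm1 (0.34) was not called (adjusted p = 0.0528). With libraries scaled to the general neuron markers, a setting chosen after seeing the data, 918 and 2335 genes were called and Chrm1 was at 0.25. The cause of these losses was not tested. Scaling to the same total called 1750 higher and 1220 lower, and to the same upper quartile 1448 and 1508. Leaving out each pair gave 937 to 1509 genes higher in VMHpvlm and 839 to 1359 in VMHpvll, 3 to 5 receptor genes higher in VMHpvlm, Chrm1 at 0.27 to 0.42 and Chrm5 at 0.46 to 0.70. In a paired fit, leaving out either library drops its pair. Of 733 values for 46 other named genes, 78 lost the call. Among values with a call in the main or the alternative fit, 0 reversed. The 733 include genes not called in the main analysis, which could not lose a call. Some of those uncalled genes changed sign, such as Arrb1, with values from -0.03 to 0.08. Chrna3, Chrm4 and Chrna5 rest on few reads, at most 45, 18 and 3 in a library.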
